A study of Mus musculus with 6 samples.

Results

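ATAC-seq, in which the Tn5 transposase cuts and tags accessible DNA, gave 14289 regions at the ends of protein-coding genes. They were 16.4% of the 87268 merged regions on chromosomes 1 to 19 and came from 89410 merged regions in all. Peaks of the 6 libraries were merged wherever they shared at least 1 bp, and a merged region was taken as an end region when it came within 1 kb of either end of a protein-coding gene span in the RefSeq annotation of GRCm38. There were 3 libraries of OB Fam20c f/f, an immortalized mouse osteoblast line whose Fam20c allele is floxed, labelled as control. There were also 3 libraries of OB Fam20c KO, which the study derived from that line with a Cre recombinase lentivirus. Both were grown in αMEM with 10% fetal bovine serum, the KO is a derivative of 1 line, and the age and strain of the source animal are not given in the sources used here. Nothing in the labels says that the replicates were separate cultures, so p-values measure only the spread between these libraries.

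The start of an active gene usually lies in a stretch of nucleosome-depleted DNA, where general transcription factors and RNA polymerase II assemble. In mammals many such starts are CpG islands, which are rich in G, C and CpG dinucleotides and are often accessible in every cell type, while starts without a CpG island tend to be accessible in the cell types that use the gene. The far end of a gene, where transcripts are cleaved and polyadenylated, has no comparable fixed open stretch. FAM20C is the kinase of the secretory pathway that phosphorylates many secreted proteins, among them matrix proteins of bone and dentin.

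The promoter sequences below show what the start regions contain, and each set is given for a reason. Fam20c is the targeted gene, and Ppp1cb, a catalytic subunit of protein phosphatase 1, had the end region with the highest mean standing outside chromosome 15. Cldn1, the tight junction protein claudin-1, and Tek, the angiopoietin receptor, had a start region in OB Fam20c f/f only. Zfp605, a zinc finger protein, and Epb41l4b, a band 4.1 family protein, had one in all 3 OB Fam20c KO libraries only, and Elovl2, an elongase of long fatty acids, had one in KO replicates 1 and 2 only. The sequences are from RefSeq (GRCm38.p6), run 5′ to 3′ on the gene's own strand, and hold 250 bases before and 50 bases from the start. They lie at chr5:138754831-138755130, plus strand (Fam20c), chr5:32458720-32459019, plus (Ppp1cb), chr16:26371790-26372089, minus (Cldn1), chr4:94739039-94739338, plus (Tek), chr5:110109842-110110141, plus (Zfp605), chr4:57143107-57143406, minus (Epb41l4b), and chr13:41220354-41220653, minus (Elovl2). Capitals mark matches, on either strand, to 10 motifs that are spelled out further on.
Fam20c: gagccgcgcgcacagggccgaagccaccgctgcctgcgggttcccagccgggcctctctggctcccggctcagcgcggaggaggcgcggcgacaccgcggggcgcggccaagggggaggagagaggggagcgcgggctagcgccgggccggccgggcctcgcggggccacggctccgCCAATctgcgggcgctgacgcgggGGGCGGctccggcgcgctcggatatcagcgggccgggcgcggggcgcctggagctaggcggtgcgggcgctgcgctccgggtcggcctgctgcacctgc
Ppp1cb: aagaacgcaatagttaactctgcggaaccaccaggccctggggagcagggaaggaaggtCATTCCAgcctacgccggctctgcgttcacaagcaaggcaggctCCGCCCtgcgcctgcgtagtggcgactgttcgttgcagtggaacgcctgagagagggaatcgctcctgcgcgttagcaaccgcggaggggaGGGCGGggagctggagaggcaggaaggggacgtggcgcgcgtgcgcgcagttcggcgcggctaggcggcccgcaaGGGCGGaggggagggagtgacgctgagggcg
Cldn1: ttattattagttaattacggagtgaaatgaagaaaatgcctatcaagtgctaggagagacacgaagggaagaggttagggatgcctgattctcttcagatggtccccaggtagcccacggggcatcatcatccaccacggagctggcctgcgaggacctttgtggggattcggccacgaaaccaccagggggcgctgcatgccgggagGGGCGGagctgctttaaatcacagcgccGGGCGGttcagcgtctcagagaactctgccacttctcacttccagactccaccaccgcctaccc
Tek: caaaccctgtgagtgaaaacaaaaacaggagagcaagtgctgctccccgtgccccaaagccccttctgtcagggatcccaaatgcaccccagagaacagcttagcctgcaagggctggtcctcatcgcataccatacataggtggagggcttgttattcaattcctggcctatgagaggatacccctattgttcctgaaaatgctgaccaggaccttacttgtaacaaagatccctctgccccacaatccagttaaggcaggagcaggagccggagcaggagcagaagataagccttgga
Zfp605: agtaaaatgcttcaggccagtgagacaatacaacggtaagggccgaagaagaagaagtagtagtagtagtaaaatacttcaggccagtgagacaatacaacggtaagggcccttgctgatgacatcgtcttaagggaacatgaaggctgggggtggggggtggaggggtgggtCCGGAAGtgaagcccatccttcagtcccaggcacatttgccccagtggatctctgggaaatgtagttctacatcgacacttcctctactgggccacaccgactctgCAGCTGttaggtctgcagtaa
Epb41l4b: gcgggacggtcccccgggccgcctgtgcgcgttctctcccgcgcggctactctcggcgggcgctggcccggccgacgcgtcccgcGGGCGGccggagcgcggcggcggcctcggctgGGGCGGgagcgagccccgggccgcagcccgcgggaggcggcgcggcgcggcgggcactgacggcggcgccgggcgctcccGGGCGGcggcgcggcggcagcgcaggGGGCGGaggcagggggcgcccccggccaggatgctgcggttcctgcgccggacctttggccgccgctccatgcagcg
Elovl2: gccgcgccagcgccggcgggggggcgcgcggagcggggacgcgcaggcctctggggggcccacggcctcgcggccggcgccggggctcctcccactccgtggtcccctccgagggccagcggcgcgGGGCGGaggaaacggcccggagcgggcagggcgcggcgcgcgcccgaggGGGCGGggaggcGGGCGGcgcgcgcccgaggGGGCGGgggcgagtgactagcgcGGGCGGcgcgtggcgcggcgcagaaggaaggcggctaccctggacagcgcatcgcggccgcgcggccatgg
All 300 bases lay inside the merged end region for each of these genes except Zfp605, where 126 bases did. Fam20c held 47 CpG dinucleotides at 80.7% G + C, with 1 CCAAT box and 1 GC box. Epb41l4b held 58 CpGs with 4 GC boxes, and Elovl2 held 56 with 5 GC boxes. Tek held 3 CpGs and no match to any of the 10 motifs. Cldn1 lay between them, with 15 CpGs and 2 GC boxes, and Zfp605 held 7 CpGs, 1 ETS site and 1 E-box. CpG-rich and CpG-poor promoters were thus both present among the regions found in 1 group.

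The deposited lists held between 32958 and 74797 peaks, the shortest being that of KO replicate 3, and the number of reads behind each list was not used here. An end region had a peak in 12626, 12654 and 13425 cases in f/f replicates 1, 2 and 3. In KO replicates 1, 2 and 3 the number was 12660, 12679 and 10529. KO replicates 1 and 2 lay within the f/f range and KO replicate 3 lay below every other library. The mean was 12902 ± 453 (SD, n = 3) in f/f and 11956 ± 1236 (SD, n = 3) in KO, and the difference of -946 was smaller than the spread within KO (exact permutation test over 20 assignments, two-sided, p = 0.6, where the smallest possible p is 0.1). Without KO replicate 3 the difference was -232. A missing peak means that the authors' q threshold was not passed in that library, and fewer accessible cells cannot be told apart from less signal per cell.

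The end regions were shared between libraries far more widely than the other 72979 regions. A peak in all 6 libraries was found at 10391 end regions (72.7%) and at 18715 other regions (25.6%). A peak in 1 library alone was found at 7.17% of end regions and 22.3% of other regions. A further 1301 end regions (9.10%) had a peak in every library but KO replicate 3, against 21.2% of other regions. In that library 73.7% of end regions and 28.3% of other regions had a peak, whereas the other 5 libraries had a peak at 88.4% to 94.0% of end regions and 65.1% to 80.6% of other regions. The gap between both shares was 19.98 ± 5.71 percentage points in f/f and 29.9 ± 13.4 in KO (SD, n = 3 each, exact permutation test, two-sided, p = 0.6), and it was widest in KO replicate 3. End regions held 21.8%, 21.6% and 18.99% of the f/f peaks, 21.0% and 20.7% of those of KO replicates 1 and 2, and 34.1% of those of KO replicate 3.

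Strand was known for 16456 of the 20661 genes, from the RefSeq promoter table, and it split the end regions by role. Regions within 1 kb of a start numbered 9321, regions near a far end alone 2048, and 2920 lay at genes whose strand was not in the table. Start regions had a peak in 93.2%, 93.6% and 96.4% of cases in the f/f libraries and 94.1%, 93.7% and 84.3% in the KO libraries. Far end regions had one in 68.7%, 68.7% and 84.3% and in 66.1%, 67.9% and 30.9%, so that they were close to the other regions in each library. The difference, start minus far end, averaged 28.1 ± 13.6 percentage points and was positive in 6 of 6 libraries (exact sign-flip permutation test, n = 6, p = 0.03125, the smallest this design allows). Without KO replicate 3 it was 22.5. The 962 start regions that served 2 or more genes were the steadiest class, with a peak in all 6 libraries in 96.5% of cases against 82.3% for starts of 1 gene.

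**Figure D1:**
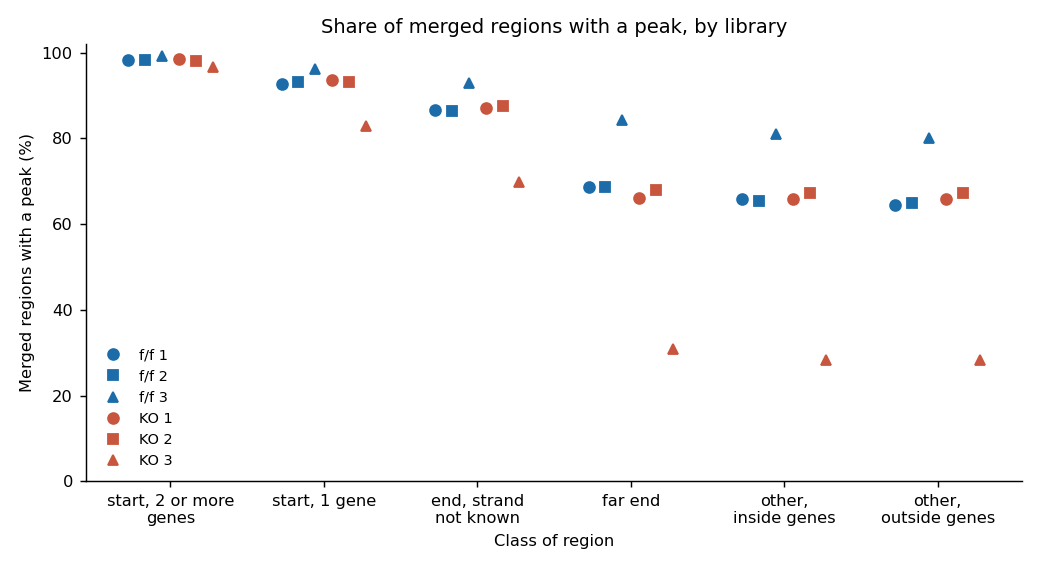
Share of merged regions with a peak (y axis, percent) in each of the 6 libraries (points, blue f/f and red KO) for 6 classes of region (x axis). The classes fall from starts of 2 or more genes, at 96.6% to 99.3%, to far ends and other regions, where KO 3 lies near 30.9% and 28.2% to 28.4%.

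The summits, the positions of highest signal within peaks, gave the same picture at finer scale. Around gene starts the fullest 100-bp bin lay directly before or after the start in every library and held 134 to 157 summits per 1000 genes. That was 34.3 to 61.0 times the level 2 to 3 kb away, with the highest ratio in KO replicate 3, whose level in the flanks was the lowest at 2.20 per 1000 genes. Around far ends no such maximum was seen, and the fullest bin within 3 kb exceeded the flanks 1.35 to 1.57 times. Instead, summits were sparse at the far end itself. In f/f replicate 1 there were 2.67 per 1000 genes in the last 100 bp of the gene, and 7.60 between 300 and 400 bp beyond it. KO replicate 3 gave 1.28 and 4.38 at these places. Gene spans give the outermost end of all transcripts, and the starts of neighbouring genes were not removed from these counts.

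**Figure D2:**
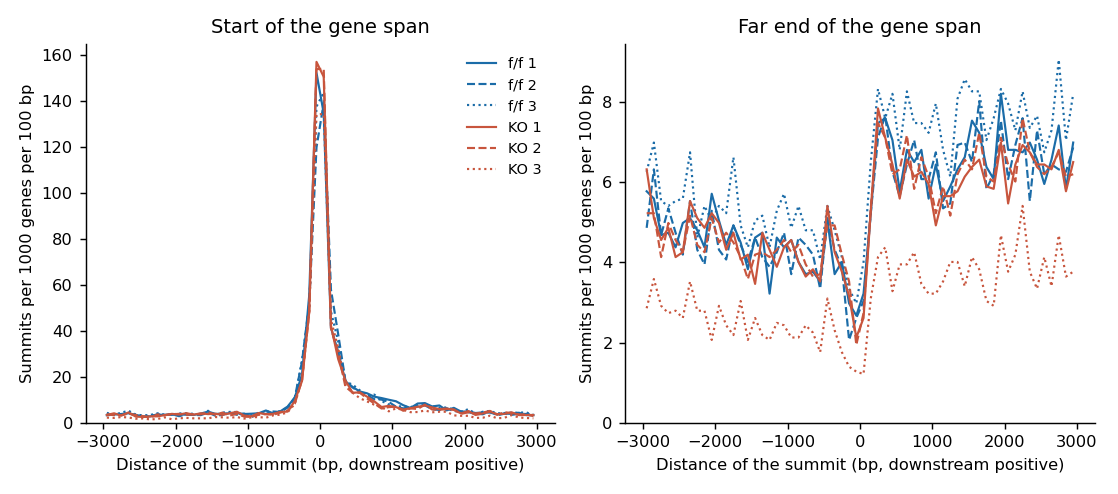
Summits per 1000 genes in 100-bp bins (y axis, scaled separately in each panel) by distance from the start (left) or far end (right) of 16456 gene spans (x axis, bp, positive downstream), 1 line per library. Every library peaks at the start, at 134 to 157, and dips at the far end, where f/f 1 is at 2.67 and KO 3 at 1.28 in the last bin of the gene.

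End regions were also higher in their lists and wider than the rest. Standing is given as the percentile of a peak's −log10 q within its own list, where 100 is the highest. The median standing of peaks at end regions was 81.4, 83.1 and 84.6 in f/f and 84.2, 84.3 and 75.5 in KO, against 37.8 to 43.8 at other regions. The difference between end and other regions was 39.96 ± 1.59 points (SD over 6 libraries, exact sign-flip permutation test, p = 0.03125) and positive in 6 of 6. The median width of peaks at end regions was 948, 1076 and 1113 bp in f/f and 1003, 1035 and 881 bp in KO, 496 ± 39 bp above that of other regions (exact sign-flip permutation test over 6 libraries, p = 0.03125). Between the groups neither differed beyond the spread, with -1.72 points for standing (exact permutation test, two-sided, p = 0.8) and -72.7 bp for width (p = 0.4). The difference in standing changed sign, to 1.196 points, without KO replicate 3. A wide region reaches a gene end more easily than a narrow one. The width difference is thus partly set by the rule that picks end regions, and its p-value cannot separate that part. Whether the same rule adds to the differences in standing and in sharing was not tested. The distance was looked at in steps, which do not remove this, since regions that cover an end are the most selected for width. The 10201 regions that covered an end had a peak in all 6 libraries in 87.9% of cases and a median width of 1301 bp. Those 801 to 1000 bp from an end, just inside the limit, did so in 33.2% (760 regions), and those 1001 to 1200 bp away, just outside it, in 33.0% (798 regions). The median of the regions' mean standing was 85.6 where an end was covered, 31.2 just inside the limit and 32.9 just outside it.

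Of the 20661 protein-coding genes, 13337 (64.6%) had an end region and 11228 (54.3%) had an end peak in all 6 libraries. The number of genes with an end peak was 12576, 12584 and 12965 in f/f and 12650, 12628 and 11296 in KO, and only KO replicate 3 stood outside the f/f range on the low side. The difference in means was -517 genes (exact permutation test, two-sided, p = 0.6), and -69 without KO replicate 3. Among genes with a known strand, 7703 had a region at the start only, 2250 at both ends and 691 at the far end only. Most genes with an end region had 1 (10441 genes), and the most was 6, at Rufy1. Genes with an end peak in all 6 libraries had a median span of 22029 bp and those with none 9974 bp. Of the 5812 genes with a known strand and no end region, 577 (9.93%) had a region within 1 kb of another RefSeq start inside the span, so that an absent end region does not mean that no start of the gene had a peak.

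Gene families differed widely. Ribosomal protein genes, which every growing cell transcribes, had an end peak in all 6 libraries in 75 of 80 cases, mitochondrial ribosomal protein genes in 73 of 78 and proteasome subunit genes in 34 of 38. The missing members included the testis forms Psma8 and Rpl10l and the thymus form Psmb11. Rps2 and H3f3b also had no end region, but each had a region at another RefSeq start within the span. Histone genes, most of them short and clustered, had one in 64 of 78 cases, with a start region at 60 and a far end region at 59. At the other extreme stood genes of the sense organs and of hair. Olfactory receptor genes had an end peak in all 6 libraries in 4 of 1104 cases, vomeronasal receptor genes in 2 of 354 and keratin-associated protein genes in 3 of 56. The Hox genes, which pattern the body axis, were split, with 18 of 39 in all 6 libraries and 17 in none.

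**Figure D3:**
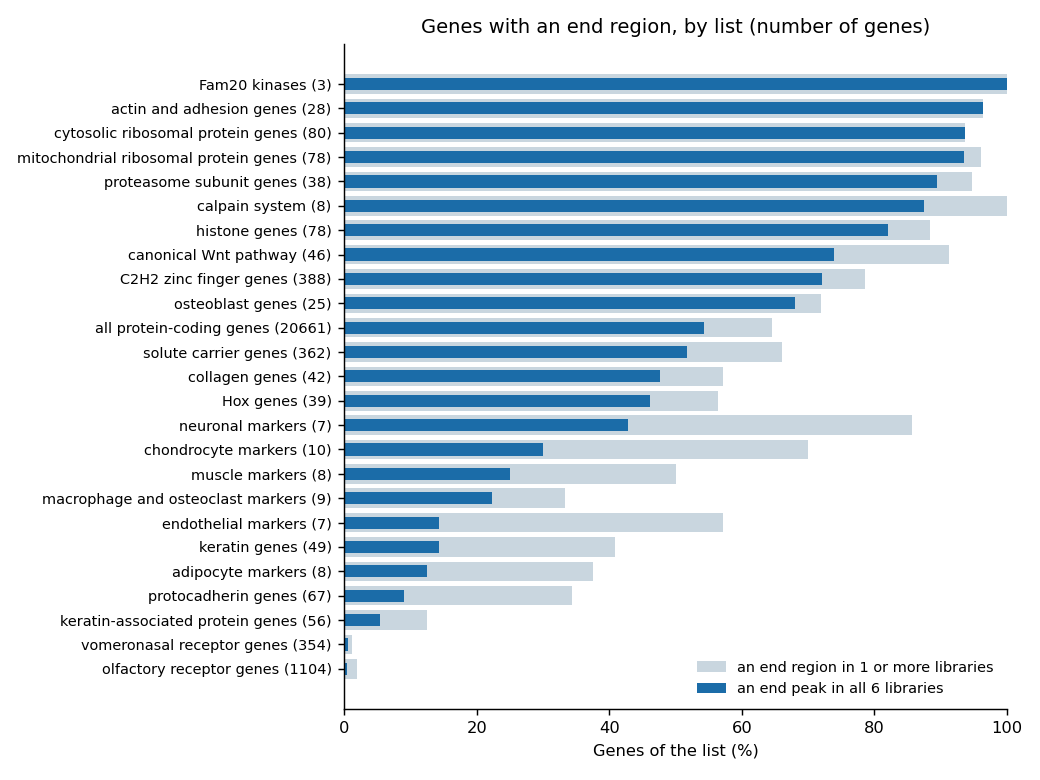
Percent of the genes of each list (x axis) with an end region in at least 1 library (pale bars) and with an end peak in all 6 (dark bars), with the number of genes in brackets. The dark bars of ribosomal and proteasome genes lie between 89.5% and 93.8%, that of all protein-coding genes at 54.3%, and that of olfactory receptor genes at 0.362%.

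The cell type label was set against its markers. Of 25 osteoblast genes on these chromosomes, 17 (68%) had an end peak in all 6 libraries, against 54.3% of all protein-coding genes, among them Runx2 and Sp7, the transcription factors that direct the osteoblast fate, Col1a1 and Col1a2, the chains of type I collagen, and Spp1 and Sparc, which encode matrix proteins. Alpl, the alkaline phosphatase of mineralization, had one in 5. Genes of late osteoblasts and osteocytes, among them Bglap, Ibsp, Mepe and Dmp1, lacked an end region, as did Bmp4 and Pth1r, though Dmp1 and Pth1r had a region at another start. The lists for other cell types had an end peak in all 6 libraries in 3 of 10 chondrocyte, 1 of 8 adipocyte, 2 of 8 muscle, 2 of 9 macrophage and osteoclast, 1 of 7 endothelial and 3 of 7 neuronal genes. Acan, Adipoq, Fabp4, Pecam1, Ptprc, Csf1r, Myog and Pax7, which define those cells, had no end region in any library. Other genes of the same lists did have an end peak in all 6, namely Sox9, Sox6 and Comp of cartilage, Cebpa of fat, Ckm and Tnnt3 of muscle, Spi1 and Cd68 of macrophages, Erg of endothelium, and Tubb3, Snap25 and Map2 of neurons.

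Fam20c kept its start region in every library, 2649 bp wide at chr5:138754183-138756831. Its standing was 92.8, 94.8 and 93.0 in f/f and 97.8, 96.3 and 95.1 in KO, where it was higher in all 3 libraries. A peak at the start does not show whether the floxed part was deleted, so the knockout was not checked by these data. The relatives Fam20a, a pseudokinase, and Fam20b, a xylose kinase of proteoglycan synthesis, had end peaks in all 6 libraries too. In the calpain system, calcium-dependent proteases with their inhibitor, 7 of 8 genes had end peaks in all 6. Capns1, the small regulatory subunit, lacked a peak in KO replicate 3.

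For regions found in all 6 lists, the ranks could be compared without the effect of list length, by ranking each library's −log10 q among these 29106 regions alone (percentile, 100 highest). This rank was added after the data were seen. Of the 10391 end regions among them, 2490 (24.0%) ranked higher in all 3 KO than in all 3 f/f libraries, against 20.9% of all 29106 regions. The reverse was seen in 1754 (16.9%), against 20.8%. With standing in each library's own list, where the short list of KO replicate 3 takes part, the split was the opposite, 596 higher (5.74%, against 3.46% of all regions) and 2314 lower (22.3%, against 25.9%). Which of both directions held more end regions thus depended on the scale. On both scales the share of higher regions was above, and that of lower regions below, the share among all regions, a difference that was not tested. Only regions that passed the threshold in the short list enter this comparison.

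By the rank among shared regions, 7 of 21 regions of osteoblast genes were higher in all 3 KO libraries and 5 were lower. Of all regions 20.9% and 20.8% were, and of end regions 24.0% and 16.9%. By standing in each library's own list the split turned round, as it did for end regions as a whole. There 1 (4.76%) was higher and 6 (28.6%) were lower, against 3.46% and 25.9% of all regions. Twist1, a basic helix-loop-helix factor of mesenchyme, ranked 25.8, 29.6 and 30.6 in f/f and 59.1, 64.1 and 68.6 in KO. Col1a2 ranked 31.6, 32.6 and 32.2 in f/f and 46.9, 47.3 and 64.2 in KO. The partner chain differed in direction, as Col1a1 ranked 70.0, 64.9 and 57.2 in f/f and 39.3, 51.6 and 48.7 in KO. Both collagen regions separated the groups, the Col1a1 region with a narrower gap. Bmp2, Spp1 and Cdh11, the osteoblast cadherin, were among the higher regions, and the homeobox genes Dlx3, Dlx5 and Msx2 among the lower. Msx2 lies on chromosome 13, which is described further on. Sp7 was near the foot of the ranking in every library, with 3.22, 8.23 and 9.09 in f/f and 0.0773, 0.0258 and 3.59 in KO, so that its groups overlapped on this scale. Runx2 overlapped as well, with 65.4, 61.8 and 56.7 in f/f and 31.6, 57.0 and 65.3 in KO. On the scale of each library's own list, Sp7 and Runx2 were lower in all 3 KO libraries, and the groups overlapped for Col1a2.

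In the calpain system, 3 of 9 regions ranked higher in KO and 0 lower, against 20.9% and 20.8% of all regions and 24.0% and 16.9% of end regions. By standing in the own list 1 was higher and 1 lower. Capn2, the large subunit of m-calpain, ranked 46.9, 54.9 and 55.2 in f/f and 68.5, 70.2 and 84.2 in KO. Cast, which encodes calpastatin, ranked 71.5, 79.6 and 75.1 in f/f and 56.0, 61.2 and 76.4 in KO, so that KO replicate 3 fell inside the f/f range. Its standing in the own list was 86.7, 90.4 and 90.1 in f/f and 79.3, 81.9 and 78.4 in KO, lower in all 3 KO libraries. Cast lies on chromosome 13, where the median standing of end regions was lower in KO as well, as described further on. Of 37 regions of the list named canonical Wnt pathway, 11 ranked higher in KO and 6 lower. That list was not limited to canonical signalling. It also held Prickle1, a planar polarity gene, and Tcf4, a basic helix-loop-helix factor. By standing in the own list 2 (5.41%) were higher, Prickle1 and Fzd4, and 8 (21.6%) lower, against 3.46% and 25.9% of all regions. Among the 8 were Wnt1, Wnt7a, Dvl3, Gsk3b, Senp2 and Tcf4. Dvl3, Gsk3b and Senp2 lie in the chromosome 16 segment described further on, where end regions as a whole stood lower in KO. Tcf7, a Wnt-responsive transcription factor, ranked 32.9, 31.0 and 42.0 in f/f and 70.8, 75.7 and 72.1 in KO, though its groups overlapped by standing in the own list. The ligand gene Wnt1 ranked 89.98, 94.3 and 92.8 in f/f and 67.3, 73.6 and 77.8 in KO. Of 30 regions of actin and adhesion genes, 10 ranked higher in KO and 2 lower. By standing in the own list 7 (23.3%) were higher and 4 (13.3%) lower. The shares on that scale were 3.46% and 25.9% of all regions, and 5.74% and 22.3% of end regions. The difference from these shares was not tested. Pxn, the focal adhesion adaptor paxillin, ranked 78.1, 76.3 and 75.3 in f/f and 91.8, 94.9 and 92.5 in KO. Itgb5, an integrin subunit in the chromosome 16 segment described further on, ranked 92.6, 90.9 and 89.9 in f/f and 63.6, 61.5 and 76.9 in KO.

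**Figure D4:**
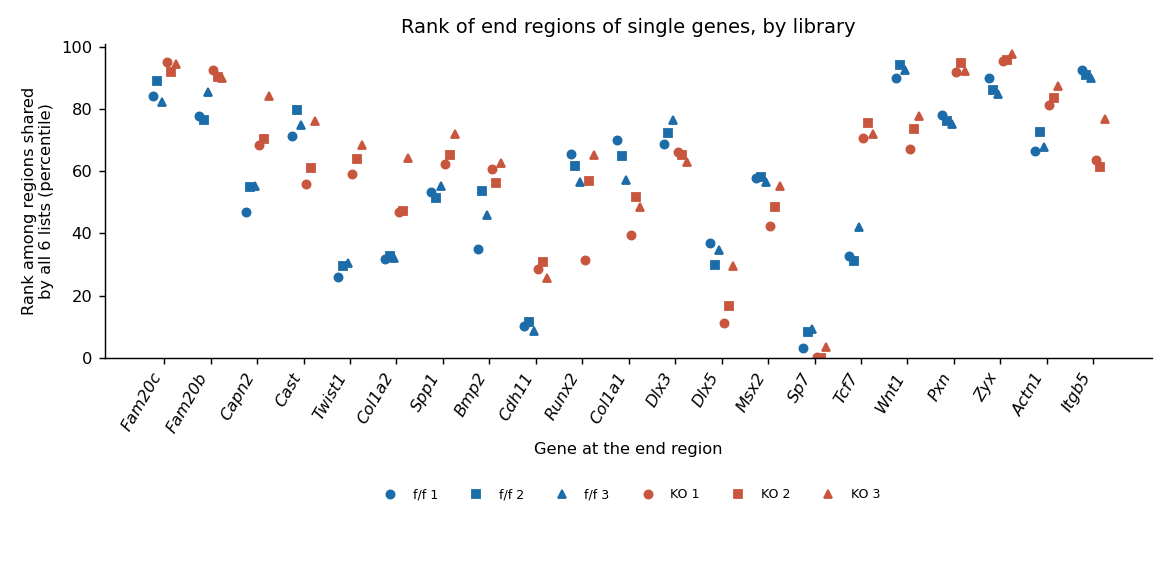
Rank among the 29106 regions shared by all 6 lists (y axis, percentile of −log10 q, 100 highest) of the end regions of 21 genes (x axis), 1 point per library, blue f/f and red KO. Twist1, Capn2, Tcf7 and Pxn show all red points above the blue ones, Col1a1, Wnt1 and Itgb5 below, and Cast, Runx2 and Sp7 overlap.

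Regions present in one group alone were few. A peak in all 3 f/f and in 0 of 3 KO libraries was found at 222 end regions (1.55%), against 3.78% of all regions on these chromosomes. A peak in all 3 KO and in 0 of 3 f/f libraries was found at 15 end regions (0.105%), against 0.173% of all. KO replicate 3 set the second number. When that library was not used, 135 end regions (0.945%) had a peak in both KO libraries and in no f/f library, against 2.86% of all, and 224 (1.57%) were in f/f only, against 3.82%. With list lengths made equal the counts were 103 and 118, so the excess in f/f was not seen. Leaving out a library loosens the rule, and the f/f count then rose to 355 without f/f replicate 1, 339 without f/f replicate 2 and 335 without KO replicate 2, while the KO count was 136 without KO replicate 3 (regions merged again) and 24 without f/f replicate 3.

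The f/f-only regions were mostly weak peaks, with a median standing of 23.7 in f/f and a median width of 607 bp. They were 96 start regions (1.03% of all start regions), 79 far end regions (3.86%) and 47 at genes of unknown strand. At a like standing in f/f, starts and far ends were retained to similar degrees in KO replicates 1 and 2 in the upper classes. Between percentiles 50 and 60, KO replicate 1 kept a peak at 96.6% of start, 98.0% of far end and 96.2% of other regions. KO replicate 3 kept 68.0% of start, 41.4% of far end and 42.0% of other regions of that class. Between percentiles 20 and 30, the share with no peak in any KO library was 16.4% for start, 18.3% for far end and 21.2% for other regions. Between percentiles 10 and 20 it was 25.8% (97 regions), 39.7% (63 regions) and 27.3%. Below percentile 10 no KO peak was found at 4 of 21 start, 10 of 21 far end and 238 of 650 other regions. Below percentile 20 far end regions were thus lost more often than start regions, which was not tested. Between percentiles 40 and 50 the order was reversed, with 5.98% for start and 1.21% for far end regions. Above percentile 90 none of the 3887 start regions was without a KO peak.

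**Figure D5:**
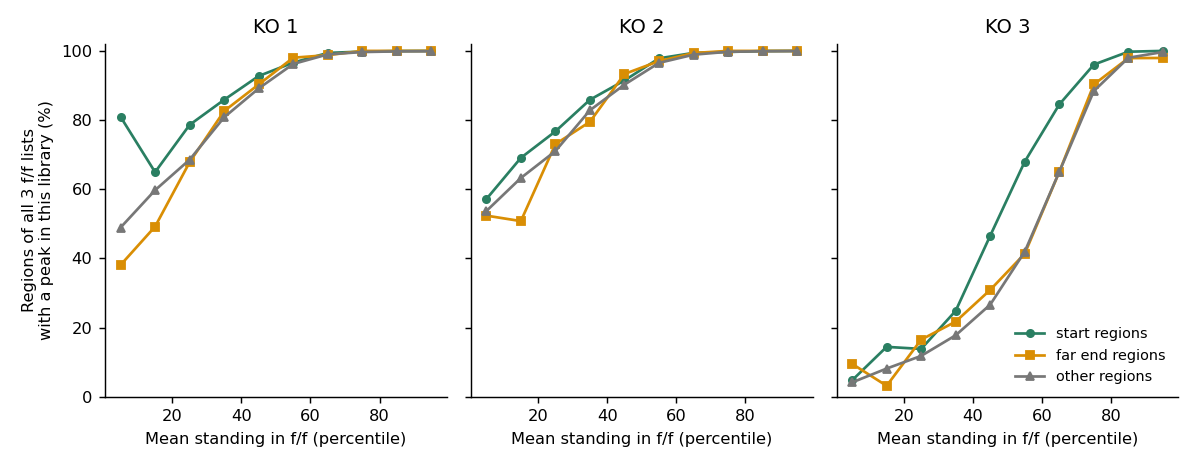
Percent of regions found in all 3 f/f lists that also had a peak in KO 1, KO 2 or KO 3 (panels, y axis), by their mean standing in f/f (x axis, percentile in classes of 10), for start, far end and other regions. In KO 1 and KO 2 the lines run together above percentile 50, and in KO 3 start regions lie above the others, at 68.0% against 41.4% and 42.0% between 50 and 60.

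The highest of the f/f-only regions stood well inside their lists. The region at the Cldn1 start (958 bp, chr16:26371281-26372238), whose promoter is printed above, had a standing of 79.6, 77.7 and 87.5 in the f/f lists. The region at the Maats1 start, a gene of cilia and flagella, had 76.6, 72.7 and 78.2. The region at the Tek start (1601 bp) had 73.2, 67.0 and 72.3. Dmrta2, a transcription factor with a DM domain, followed with 68.9, 69.9 and 69.7. Ube2u, of the ubiquitin-conjugating enzymes, Rasgrf2, an exchange factor for Ras, Btn2a2, a butyrophilin, and Ldhb, a lactate dehydrogenase subunit, followed with mean standings of 65.9, 62.4, 57.8 and 57.4. The other 2 of the 10 highest lay at far ends, those of Gm46752 and of Nmi, an interferon-induced protein, and both genes kept another end peak in all 3 KO libraries. When equal numbers of peaks were used, each of the 10 except the Ldhb region was still in all 3 f/f lists and in no KO list.

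Several of these genes lay in 3 segments, chosen after their values were seen, where a larger share of end regions had no KO peak. On chromosome 13, 15 of the 452 end regions found in all 3 f/f lists (3.32%) had none in KO. This was the highest share of any chromosome, but chromosome 16 was almost equal (3.30%). Chromosomes 4 (2.81%), 19 (2.80%) and 12 (2.69%) were near it, and most end regions of chromosome 13 kept a KO peak. In a segment of 15 Mb of chromosome 4, from 90 Mb on, it was 10 of 29 (34.5%), with Tek and Ube2u among them. Between 20 and 40 Mb of chromosome 16 it was 9 of 144 (6.25%), with Cldn1 and Maats1. Outside the segments it was 188 of 11509 (1.63%). The median standing of end regions on chromosome 13 was 85.6, 85.6 and 87.3 in f/f and 81.4, 81.1 and 69.1 in KO, and in the chromosome 16 segment it was 94.1, 94.3 and 95.2 in f/f and 87.0, 86.7 and 78.9 in KO. In the chromosome 4 segment the groups overlapped, with 88.9, 88.6 and 72.3 in f/f and 85.1, 85.3 and 76.2 in KO. Each median covers only the regions with a peak in that library. In the chromosome 4 segment these were 31, 35 and 37 in f/f and 19, 19 and 17 in KO. The medians there thus compare different regions and leave out those without a KO peak. KO replicate 3 was low throughout the genome, at 76.9 outside the segments, while KO replicates 1 and 2 were at 85.2 and 85.0 there. The number of DNA copies was not measured, and its part in these regions was not tested.

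The KO-only regions were narrower, with a median width of 413 bp, and also stood low in their lists, with a median standing of 27.8 in KO. The region at the Zfp605 start had a standing of 49.4, 47.4 and 42.6 in the KO lists. That at the Epb41l4b start, which LOC108168956 overlaps, had 58.5, 56.2 and 16.8, and it was the 1 region of these that kept a peak in all 3 KO libraries with equal numbers of peaks. Gstp2, a glutathione S-transferase, had 43.6, 38.7 and 14.1, and reads there may be shared with its near-identical neighbour Gstp1. Lrrc32, which encodes the TGF-β anchor GARP, had 19.1, 31.1 and 0.564, and the imprinted gene Ndn had 23.9, 8.95 and 5.01. Zmym2, Bmp1, which encodes the proteinase that trims procollagen, Rrs1 with Adhfe1, and Setd1b with Rhof also had a KO-only region, but each of these genes had another end region with a peak in at least 1 f/f library. The highest of all by mean, at the start of the predicted gene Gm32584, rested on KO replicate 3, with 36.9, 42.7 and 93.6.

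KO replicates 1 and 2 shared 120 further end regions that no f/f library and not KO replicate 3 had. The highest was at the Elovl2 start (705 bp), with a standing of 58.0 and 56.5, and it lay on chromosome 13. Ankmy1 followed with 52.4 and 55.6. The far end of Selenop, a selenium carrier, had 50.6 and 49.6. Marchf9, a ubiquitin ligase, Alk, a receptor kinase, Rtn4rl2, a Nogo receptor relative, the neighbours Lpin1 and Ntsr2, Armc12 and Gbp10, an interferon-induced GTPase, were among the 10 highest, with mean standings of 41.8 to 48.5. Of these genes Elovl2, Marchf9, Lpin1, Ntsr2, Armc12 and Gbp10 had no end peak in any f/f library.

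At the level of genes, 114 (0.552% of 20661) had an end peak in all 3 f/f and in no KO library, and 8 (0.0387%) the reverse. The 8 were Zfp605, Epb41l4b, LOC108168956, Gstp2, Ndn, Lrrc32, Sybu and Bcar1, the last encoding the adhesion adaptor p130Cas. Without use of KO replicate 3, 114 and 81 (0.392%) were counted, and with equal numbers of peaks 67 and 96. The first number was 172 without f/f replicate 2 and 182 without KO replicate 1, and the second 13 without f/f replicate 1. Of 245 genes near an f/f-only region, 134 kept another end region with a peak in a KO library. Of the 91 genes of the 114 with a known strand, 14 also had a KO peak at another RefSeq start, among them Wnt6, Cyp1a1 and Pde4b, and Bcar1 had an f/f peak in this way. Among the 114, named after their values were seen, were the ligand genes Wnt6, Bmp3 and Fgf10, the adhesion genes Cldn1, Vcam1, Dsg1b and Cdh22, the transcription factor genes Mycn, Eomes, Irf5 and Dmrta2, and the enzyme genes Ldhb, Nqo1, Cyp1a1 and Dio3. No osteoblast, calpain, Wnt pathway, actin or adhesion gene of the lists used here was among the 114 or the 8. These lists held 25, 8, 46 and 28 genes, too few to tell this from the shares of 0.552% and 0.0387% over all genes. Dlx3 and Zyx each had an f/f-only end region but kept another with a peak in all 3 KO libraries. The endothelial marker Tek and the neuronal marker Gad1 were among the 114, the latter with a standing of 11.97, 6.27 and 3.35 at its f/f-only region.

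A pair of gene lists came from the study, which had joined regions and transcripts that moved the same way between the groups. Since they were chosen on these libraries, their direction is not independent evidence. Of 97 genes with an end region in the list higher in KO, 72, 70 and 76 had an end peak in f/f and 93, 92 and 67 in KO, the last in KO replicate 3. Ndn, Lrrc32 and Sybu were gained, and 11 genes were without use of KO replicate 3, among them Igfbp5, which binds insulin-like growth factors, and Itgbl1. Of 90 such genes in the list lower in KO, 86, 88 and 89 had an end peak in f/f and 70, 69 and 54 in KO. Of these, 16 lost every end peak, among them Cldn1, Ldhb, Dmrta2, Eomes, Hook1, Pde4b and Rbp4. An end peak in all 6 libraries was found for 60 of the 97 and 54 of the 90 genes.

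The end regions of highest standing over all 6 libraries lay on chromosome 15. They were those of Derl1, a protein of endoplasmic reticulum quality control, AW549877, Atf7, the syndecan gene Sdc2, the neighbours Alg12 and Creld2, Tfcp2, Kansl2, Rpl37 with Card6, Dgat1, which makes triglycerides, and Sqle, of sterol synthesis. Each had a standing of at least 99.7 in every library. Of the 100 highest merged regions 62 were end regions and 70 lay on chromosome 15, and of the 1000 highest 772 were end regions and 335 lay on that chromosome. The median standing of end regions there was 92.1, 91.7 and 90.6 in f/f and 90.8, 91.7 and 93.6 in KO, so that it was alike in both groups, while only 79.9% to 87.5% of its end regions had a peak in the f/f libraries. Outside it Ppp1cb, Napepld, which makes N-acylethanolamines, and Hjurp, the chaperone of the centromeric histone, were highest. The copy number of chromosome 15 was not measured, and its part in these ranks was not tested.

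The widest end region lay at the start of Zmiz1, which encodes a transcriptional coregulator, and spanned 4990 bp. It was followed by those of Gdnf, a neurotrophic factor, with 4291 bp, Lzts2 with 3982 bp, Col5a1, a fibrillar collagen chain, with 3929 bp, and Myc with 3928 bp. All 5 had a peak in all 6 libraries. Of the 1000 widest merged regions 667 were end regions. The Zmiz1 region had a standing of 68.0, 64.9 and 74.3 in f/f and 65.0, 64.1 and 48.4 in KO, while the Gdnf and Myc regions had mean standings of 87.4 and 86.0.

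Promoter sequences were compared for 14810 genes whose RefSeq start lay within 1 kb of the start of the span, as a description over genes, which are not replicates. Genes with a start region in all 6 libraries (8099) had a median G + C content of 62%, 22 CpGs and a ratio of observed to expected CpG of 0.800. Genes with one in 1 to 5 libraries (1137) had 56.7%, 9 and 0.431, and genes with none (5574) had 47.3%, 3 and 0.197. The GC box (GGGCGG) was in 69.4%, 42.4% and 17.5% of these promoters, against 47.8% of all. The ETS site (CCGGAAG) was in 19.99%, 4.93% and 2.92%, against 12.4% of all. The NRF1 site (GCGCATGC) was in 6.11%, 2.29% and 0.736%, against 3.79%, and the CRE (TGACGTCA) in 3.72%, 1.85% and 0.753%, against 2.46%. The TATA box (TATAAA) ran the other way, in 6.25%, 12.1% and 25.3%, against 13.9%. The AP-1 site (TGACTCA) was most frequent in the middle group, in 3.12%, 8.004% and 5.99%, against 4.58%, and so was the E-box (CAGCTG), in 14.0%, 19.4% and 15.3%, against 14.9%. The CCAAT box (CCAAT) differed little, in 39.7%, 34.7% and 39.9%, against 39.4%. The Runx site (AACCACA) was in 3.15%, 6.07% and 7.16%, against 4.88%, and the TEAD site (CATTCCA) in 2.61%, 3.61% and 5.63%, against 3.82%. Motifs were searched on both strands, may overlap, and a match is not a bound site.

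The 79 genes with an f/f-only start region had a median G + C content of 60%, 15 CpGs and a CpG ratio of 0.607, and the 67 with a start region in both of KO replicates 1 and 2 but in no f/f list had 57.3%, 11 and 0.438. Both lay between the genes with start regions in all 6 libraries and those with none, as the promoters of Cldn1, with a ratio of 0.638, and Zfp605, with 0.365, do singly. Both sets were taken whatever other start regions a gene had, so they may overlap the classes above, and their middle values may reflect such a mix. The AP-1 site was in 8.86% of the first and 7.46% of the second, near the 8.004% of all genes with a start region in 1 to 5 libraries. The ETS site was in 0% and 4.48%, and with 79 promoters 0 matches allow a share of up to 3.8%.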

How the data were processed

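The ATAC-seq peak lists, 3 for OB Fam20c f/f and 3 for OB Fam20c KO, were grouped by the sample labels. After trimming and alignment to mm10 with BWA, the authors used MACS2 2.1.2 on each library with a q-value limit of 0.05. For each peak the deposited lists give a score, the fold over the local background as a ratio, the −log10 p and the −log10 q. These depend on depth, so they were used as ranks within a list, and read counts were not used here. Reads per library were not analysed here, and the precision is set by the number of libraries.

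Peaks sharing 1 bp were merged, and regions on chromosomes 1 to 19 within 1 kb of an end of a RefSeq protein-coding gene span (GRCm38.p6, the coordinates of mm10) were kept. Starts and strand came from the RefSeq promoter table, which held 16456 of the 20661 genes, with none from chromosome 18. Regions only in 1 group had a peak in 3 of 3 libraries of that group and 0 of 3 of the other. Groups were compared by exact permutation tests over 20 assignments, and classes within libraries by exact sign-flip tests over 64. The steps were tested on simulated peak lists. Members, lists and tests were chosen with earlier results of these data known, and the symbol pattern for histone genes was corrected after the lists were seen. Genes were named as Fam20c, the 10 highest f/f-only, KO-only and KO replicates 1 and 2 only regions, the 10 highest and 5 widest in all, and the fixed lists, and other genes are said to be chosen later. Alternatives were each library left out, −log10 q of 5, equal list lengths, 500 bp or 2 kb, 50% overlap, 2 of 3 libraries, other rankings, omitted segments or chromosome 15, and the replicate block. Python 3.11.15, numpy 2.4.6, pandas 2.3.3 and matplotlib 3.10.9 were used.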

Additional observations from a re-analysis of the deposited data

How the results depend on the processing

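With each library left out in turn, the difference between groups ranged from -1308 to -232 for end regions with a peak, from -747 to -69 for genes with an end peak, from 2.21 to 14.9 percentage points for the gap between end and other regions, from -122 to -26.7 bp for width and from -3.17 to 1.196 for standing, the last being reversed without KO replicate 3. Standing of end over other regions ranged from 39.7 to 40.4, width from 490.4 to 509 bp and start over far end from 22.5 to 27.9 points, each with p = 0.0625, the smallest that 5 libraries allow in the exact sign-flip test. The width difference is partly set by the rule that picks end regions, and the part of that rule in standing was not tested. Regions only in f/f numbered 224 to 355 and only in KO 15 to 136, genes lost 114 to 182 and gained 9 to 82, and end regions of lower rank in KO 1966 to 2588 and of higher rank 2782 to 3164. With equal list lengths the differences were reversed for end regions (15.7), genes (38) and standing (0.744), and the 4 counts were 103, 118, 67 and 96. With 2 of 3 libraries they were 493, 135, 237 and 83. Within 500 bp, 140 regions were only in f/f, and within 2 kb 378 were only in f/f and 25 only in KO. End regions of higher rank in KO fell to 596 by standing in each library's own list, and those of lower rank to 689 by fold. The cause of these shifts was not tested, apart from the construction of each setting. The other alternatives kept the direction, and counts within 1.5 times.

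Same-numbered libraries of both groups had correlations of -0.236, -0.158 and -0.480 in their deviations from the group means, which gave no sign of pairing by number. With each f/f library, KO replicates 1 and 2 gave like values and KO replicate 3 the opposite sign. The check thus mostly follows KO replicate 3 and cannot exclude pairing. With the replicate block the differences were unchanged by construction, at -946 end regions, 9.92 points, -1.72 points of standing, -72.7 bp and -517 genes, with exact permutation p of 1, 1, 1, 0.75 and 1, where 0.25 is the smallest that 3 pairs allow. Peak lists limit what can be seen: regions in all lists cannot show gain or loss, and regions below the threshold were not seen.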
